A study of Oryctolagus cuniculus with 10 samples.

Results

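The sites described here are single nucleotide positions of the rabbit genome at which the liver RNA of exactly 1 of 10 sequenced libraries differed from the reference base, while the other 9 libraries had reads and carried the reference base. They were chosen by the base called in each library, at positions with reads in all 10 libraries. Of 145208 such positions, 22354 (15.4%) met the rule, and the whole deposited list held 570218 positions. The number of libraries that differed chose these sites, so that number is given as a description with no test.

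The libraries came from liver poly-A RNA of male wild-type New Zealand white rabbits. Feed enriched in sunflower oil (1%) was given to the 5 control animals during 4 weeks, and the 5 squalene animals received this feed plus 0.5% squalene over the same time. The age of the animals is not given in the sources used here, and a legend of the study calls the sequenced samples partially pooled, although its text and the labels give 1 animal per library. The diet of each library was taken from the column name of the site table.

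A single nucleotide difference that appears in 1 animal of a small group is usually a rare allele, a rare haplotype carried from an ancestor, or, in RNA, an edited base or an error of copying, mapping or calling. Changes between the purines A and G or between the pyrimidines C and T are transitions, and all others are transversions. Transitions outnumber transversions in mammalian genomes, in part because methylated cytosines in CpG pairs deaminate to thymine, and calling errors need not follow that excess. Alleles that lie close together on a chromosome are inherited together, so rare alleles of 1 animal tend to stand in groups. Sites in RNA can be read only where a gene is transcribed, and the calls do not tell an animal with 1 changed copy from one with both copies changed.

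The clean reads of the 10 libraries ranged from 45260000 to 46120000 with a median of 45850000. The number of reads behind a base call is not in the site table, so the precision of a single call is unknown. Accepted and rejected calls could not be told apart, so every listed call counts as a difference here. Among single-library sites, 0 groups of 3 sites of the same library lay within 35 bases. Among all changes, shared ones included and counted library by library, there were 2091 such dense groups. Comparisons of single-library sites with other changes within libraries did not take this inequality into account. Whether rejected calls are as frequent at single-library sites as at other changes was not tested. Listed positions with reads ranged from 281364 to 357105 per library. Of 8 hepatocyte marker genes, 7 were listed in the deposited expression table, of 5 macrophage markers 5, and of 2 erythroid markers 0. Listed too were 4 of 4 endothelial, 5 of 5 stellate, 3 of 4 cholangiocyte, 3 of 3 lymphocyte and 2 of 3 muscle markers. A listing gives no level, so it does not tell which cell types the libraries held. Values per animal for these markers were not analysed here. Nothing in the sources says that the 10 libraries differ by batch.

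Sites seen in 1 library were the most numerous class when positions were sorted by how many libraries differed. Just outside the rule, 16980 positions differed in 2 libraries. The numbers then declined to 11130 positions in 7 libraries and rose again to 11925 in 9 and 18583 in all 10. No single-library site had a call of 2 alternative bases.

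**Figure D1:**
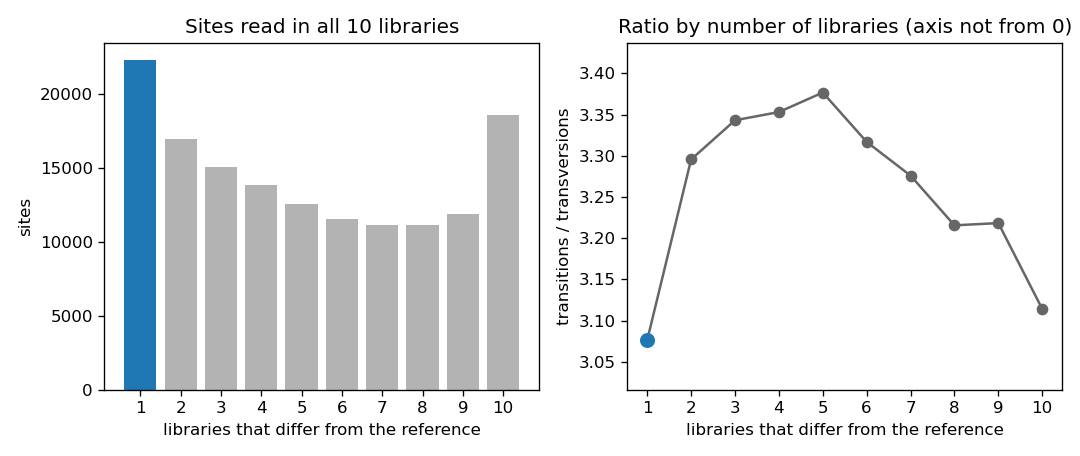
Left, number of positions with reads in all 10 libraries, by the number of libraries that differ from the reference (single-library sites in blue, 22354). Right, ratio of transitions to transversions for the same classes on an axis that does not start at 0, with 3.08 at single-library sites, 3.38 at positions that differ in 5 libraries and 3.11 where all 10 differ.

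Single-library sites were spread unevenly over libraries of both diets. The control libraries had 1667, 2022, 2051, 2521 and 3567 of them. The squalene libraries had 955, 1209, 1895, 2555 and 3912. The squalene libraries held both the lowest values and the highest, and the ranges overlapped. The mean was 2366 ± 737 (SD, n = 5) in controls and 2105 ± 1187 (SD, n = 5) with squalene, a difference of -260.4 sites per library that did not pass the test (p = 0.675, two-sided exact permutation test over all divisions of 5 against 5). The smallest p that this design allows is 0.00794. In all, 11828 sites (52.9%) came from control libraries and 10526 (47.1%) from squalene libraries. Without 1 squalene library, the one with the most such sites, the difference was -712.1 sites per library, and without 1 control library it was 39.95, with no p under 0.206 in any of the 10 such tests.

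Set against all the changes of a library, the share that no other library carried was 3.08% ± 0.892 (SD, n = 5) in controls and 2.82% ± 1.49 (SD, n = 5) in squalene animals, and this difference of -0.26 percentage points did not pass the test either (p = 0.698, exact permutation test). The number of single-library sites was compared with the number of listed positions that had reads in a library. Over the 10 libraries Pearson's r was 0.551 (p = 0.101) and Spearman's rho 0.479 (p = 0.166), both by permutation tests, adjusted to 0.331 over 4 relations computed in the same family, and r was 0.346 without the 2 libraries farthest from the median. The relation with the number of positions at which only that library matched the reference was no clearer (r = 0.392, p = 0.263, adjusted p = 0.351, and rho = 0.297, p = 0.408, adjusted p = 0.408, permutation tests). Without the 2 farthest libraries this r was 0.699.

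The 6 change classes, each taken on the reference strand and joining both directions of a change, were A-G with 8422 sites, C-T with 8448, C-G with 1614, A-C with 1340, G-T with 1379 and A-T with 1151. The first 2 are the transitions. In control libraries A-G changes numbered 613, 741, 803, 984 and 1338, and in squalene libraries 374, 436, 738, 935 and 1460. C-T changes numbered 636, 762, 766, 984 and 1344 in control libraries, and 350, 460, 683, 943 and 1520 in squalene libraries. The diets overlapped in both transition classes.

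Transversions were fewer and also overlapped. C-G changes ranged from 120 to 273 per control library and from 75 to 277 per squalene library. The ranges were 110 to 216 and 51 to 225 for A-C, 83 to 231 and 51 to 231 for G-T, and 94 to 165 and 54 to 199 for A-T. None of the 6 classes passed the test between diets, the smallest p being 0.635 for C-G (exact permutation test) and every adjusted p 0.905.

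**Figure D2:**
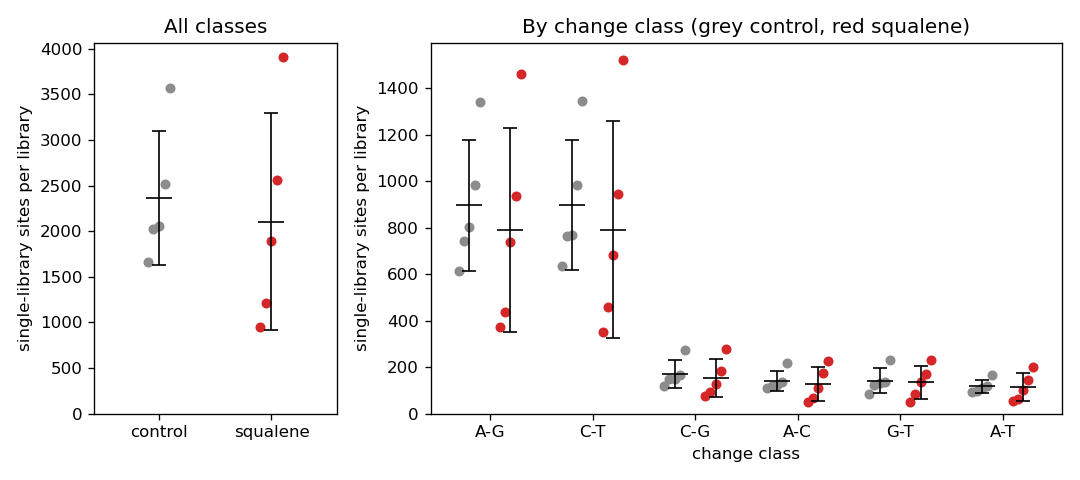
Number of single-library sites in each of the 5 control (grey) and 5 squalene (red) libraries, in all and by change class, with the mean (short line) and SD (bar). The squalene libraries, from 955 to 3912 in all, enclose the control libraries, from 1667 to 3567.

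The ratio of transitions to transversions at single-library sites was 2.93, 2.99, 3.03, 3.22 and 3.56 in control libraries. It was 2.77, 2.86, 3.00, 3.13 and 3.20 in squalene libraries. The groups overlapped, and the difference between the means of -0.15 did not pass the test (p = 0.325, exact permutation test).

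Within libraries, the ratio was lower at single-library sites than at the other changes of the same library in 9 of 10 libraries. The mean was 3.07 ± 0.223 against 3.24 ± 0.0229 (SD, n = 10), a difference of -0.17 ± 0.231, with p = 0.0527 and adjusted p = 0.0791 over 3 paired comparisons (exact permutation test over the 1024 sign changes), which missed the threshold of 0.05. Without 1 control library, the one whose ratio at single-library sites was the highest, the difference was -0.22 and the adjusted p 0.0117. Without sites that had another single-library site of the same library within 10 bases, it was 0.03 with an adjusted p of 0.889. Close sites were left out on the single-library side only, and the other changes kept theirs. The unequal dense groups described above were not corrected for in this comparison. The other changes are largely shared between libraries, so these 10 differences are not fully independent. Pooled over libraries, 16870 transitions and 5484 transversions gave 3.08 at single-library sites, and the ratio was 3.27 at the other 122854 positions.

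**Figure D3:**
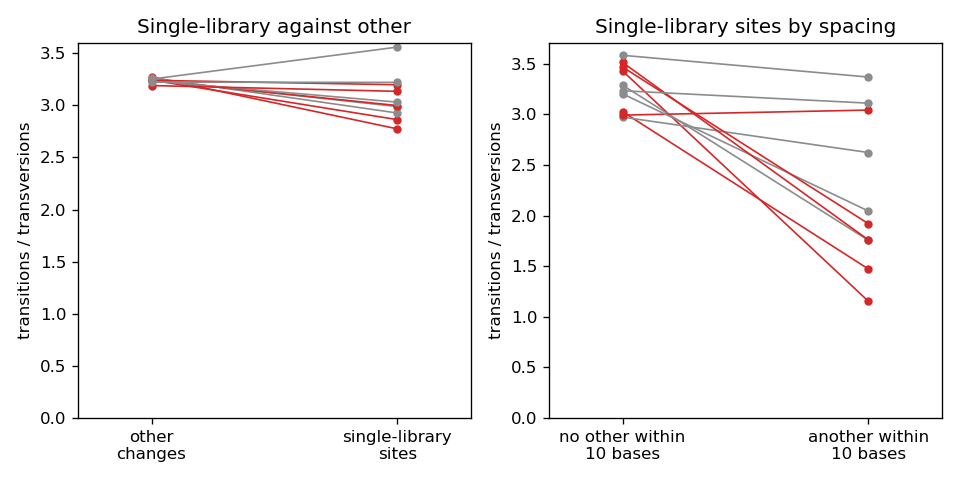
Ratio of transitions to transversions in each library (control grey, squalene red). Left, other changes against single-library sites, lower at the latter in 9 of 10 libraries. Right, single-library sites without and with another of the same library within 10 bases, lower with one in 9 of 10 libraries.

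The class that set single-library sites apart was A-T. Its share of single-library sites was 4.44, 4.58, 4.63, 5.76 and 5.79% in control libraries and 5.09, 5.38, 5.44, 5.65 and 5.71% in squalene libraries. Among the other changes the share lay between 3.92% and 4.08% in all 10 libraries, so the 2 kinds of change did not overlap. A-T changes were thus more frequent at single-library sites in 10 of 10 libraries, by 1.27 ± 0.524 percentage points (SD, n = 10), with p = 0.00195, the smallest these 10 libraries allow, and adjusted p = 0.0117 over the 6 classes (exact permutation test, chosen after the data were seen). The difference was 0.716 percentage points (adjusted p = 0.0117, exact permutation test) without single-library sites within 10 bases of another of the same library. The other changes were not filtered in this way. For positions that differed in exactly 2 libraries, the comparison of A-T shares without this filter gave 0.263 (adjusted p = 0.0469, exact permutation test). Each of these positions enters the values of 2 libraries. The 10 differences therefore share sites, which the test does not take into account. No A-T comparison was corrected for the unequal dense groups described above.

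The other classes did not pass this test over all sites. C-T made up 37.6% of single-library sites and 38.2% of other changes as means over libraries (adjusted p = 0.223, exact permutation test), and A-G 37.7% and 38.2% (adjusted p = 0.410). C-G was at 7.27% and 7.46%, A-C at 5.98% and 6.15%, and G-T at 6.15% and 6.01%, with adjusted p of 0.410, 0.471 and 0.543 (exact permutation tests). With 1 site per library and 100000 bases for both kinds of change, C-T, C-G and A-C were lower at single-library sites and passed, by -1.08, -0.81 and -0.58 percentage points (adjusted p = 0.00586, 0.00781 and 0.0439, exact permutation tests). C-G also passed at positions with reads in at least 8 libraries (-0.40, adjusted p = 0.0117, exact permutation test). Both directions of A-T change were more frequent in the pooled sites, where A to T was 2.61% of single-library sites against 1.99% of other positions, and T to A 2.54% against 2.00%.

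Changes that replace A or T by G or C were compared with those that do the reverse. Of both together, the first kind made up 48.5% ± 3.67 at single-library sites and 51.4% ± 0.173 at other changes (SD, n = 10). It was lower at single-library sites in 7 of 10 libraries, and the difference of -2.91 ± 3.69 percentage points had p = 0.0430 and adjusted p = 0.0791 (exact permutation test). Without single-library sites within 10 bases of another of the same library it passed, at -3.64 (adjusted p = 0.0469, exact permutation test). The other changes were not filtered in this way. The difference also passed with 1 site per library and 100000 bases for both kinds of change, at -3.28 (adjusted p = 0.0439, exact permutation test). Over positions, this share was 47.4% where 1 library differed, 44.8% where 2 did and 57.5% where all 10 differed. Where 3, 4 and 5 libraries differed it was 44.9, 45.7 and 46.9%. Single-library sites were thus higher than positions with 2 to 5 differing libraries and lower than those with 6 to 10. A position enters the other changes of every library that differs there, so positions with many differing libraries count in more libraries. Dense groups, unequal between the kinds of change as described above, were not corrected for. For positions that differed in exactly 2 libraries, the same comparison within libraries gave -6.64 percentage points (adjusted p = 0.00586, exact permutation test). Each of these positions enters the values of 2 libraries, so the differences share sites, which the test does not take into account.

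Single-library sites of the same library stood together. Of pairs of single-library sites that were neighbours on a sequence, 90.9% belonged to the same library when they were adjacent bases (359 of 395 pairs). The share was 84.5% at 2 to 10 bases, 74.6% at 11 to 100, 58.0% beyond that up to 1000 and 44.5% up to 10000 bases. It fell to 17.5% between 100000 and 1000000 bases and to 10.9% beyond, next to 11.5% for pairs of sites taken from different sequences. Positions that differed in exactly 2 libraries had the same course, with the same 2 libraries in 90.4% of adjacent pairs and in 5.75% of pairs more than 1000000 bases apart.

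**Figure D4:**
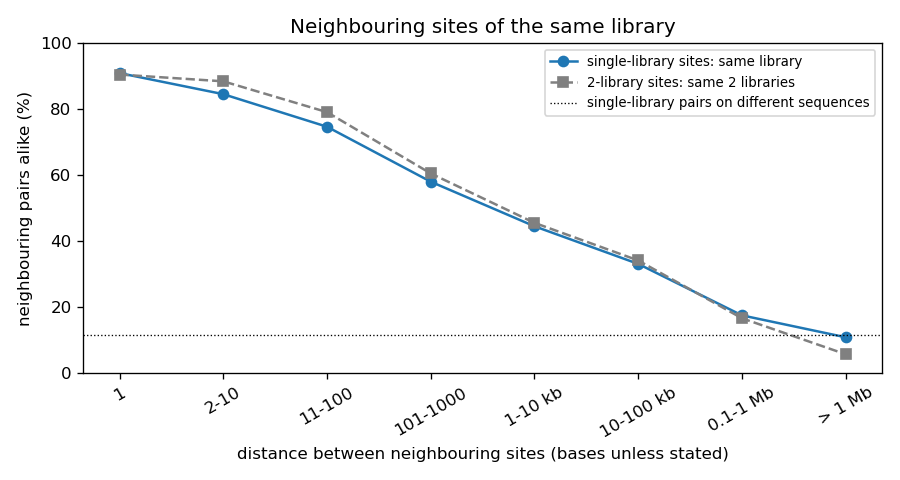
Share of neighbouring single-library sites that belong to the same library (blue, percent) by the distance between them, with the share of neighbouring 2-library positions that have the same 2 libraries (grey). The blue line goes from 90.9% at adjacent bases to 10.9% beyond 1000000 bases, near the 11.5% of pairs on different sequences (dotted).

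Among the 22354 sites, 2628 (11.8%) had another of the same library within 10 bases. Their ratio of transitions to transversions was 2.09, and that of the remaining 19726 sites was 3.26. In control libraries the ratio of these close sites was 1.76, 2.05, 2.62, 3.11 and 3.37. In squalene libraries it was 1.15, 1.47, 1.76, 1.92 and 3.04. It was lower than at the remaining sites of the same library in 9 of 10 libraries, by -1.05 ± 0.817 (SD, n = 10, p = 0.00391, exact permutation test chosen after the data were seen). A-T changes made up 9.17% of close sites and 4.61% of the rest. The other transversion classes were more frequent at close sites too. A-C made up 8.11% and 5.71%, G-T 7.34% and 6.01%, and C-G 7.72% and 7.15%. At positions that differed in 2 libraries the ratio was 2.54 for close changes and 3.39 for the rest, and A-T changes made up 5.18% and 4.15%.

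The share of close sites did not differ between diets beyond its spread, at 10.8, 11.3, 11.3, 12.4 and 13.6% in control libraries and 10.03, 10.65, 12.2, 13.9 and 14.5% in squalene libraries (p = 0.706, exact permutation test).

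In the 359 pairs of adjacent bases that changed in the same library, both changes were transitions in 134 (37.3%), 1 was in 126 and neither was in 99. The pair CA changed to TG, or TG to CA on the other strand, 50 times (13.9%). The pair AA changed to GG, or TT to CC, 48 times (13.4%), and AA to TT or TT to AA 17 times. No 3 adjacent bases changed in the same library, and the shortest distance from the first to the third of 3 single-library sites of 1 library was 36 bases. There were 0 such triples within 35 bases and 120 between 36 and 45. When all changes of a library were counted, shared ones included, there were 2091 triples within 35 bases and the shortest spanned 2. At positions that differed in 2 libraries, 16 triples lay within 35 bases. The sources used here name a filter against unreliable sites without its settings, and its part in this gap was not tested.

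Sites of 1 library at most 100000 bases apart were joined into runs where no single-library site of another library lay between them. A site of another library thus ended a run, even between close sites. The 22354 sites formed 11791 runs, of which 8166 were single sites. There were 242 runs of at least 10 sites, which held 4290 sites (19.2%) and had a median span of 33.1 kb. These runs of at least 10 sites occurred in 8 of the 10 libraries. They held 10.98, 14.1, 17.1, 23.1 and 23.5% of the single-library sites in control libraries and 0, 0, 13.5, 18.7 and 33.7% in squalene libraries. The 2 libraries with none were squalene libraries and had the fewest single-library sites of all, 955 and 1209. The largest share was in the squalene library with the most single-library sites, 3912. The means of 17.8% and 13.2% did not differ beyond their spread (p = 0.516, exact permutation test). The number of runs, 1230 on average in controls and 1128 with squalene, did not pass the test either (p = 0.524, exact permutation test).

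**Figure D5:**
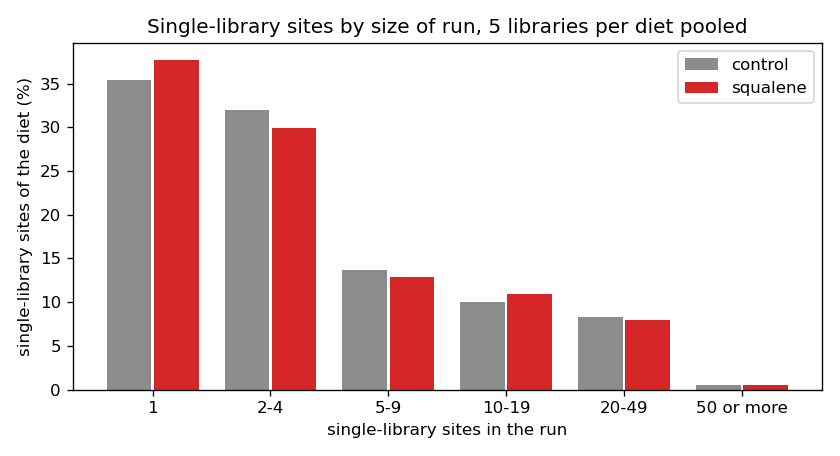
Percent of the single-library sites of each diet (control grey, squalene red, 5 libraries pooled) in runs of the size on the x axis. Runs of 1 site held 35.4% in control and 37.8% in squalene libraries, and runs of 50 or more sites 0.516% and 0.589%. A run ended at a single-library site of another library.

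The 15 runs with the most sites came from 6 libraries, 9 runs from control and 6 from squalene libraries. In 9 of them at least 90% of the positions read in all libraries were single-library sites. On chromosome 2 of OryCun2.0, positions 42084342 to 42104676, a squalene library carried 62 single-library sites, and all 62 positions read in the 10 libraries there were single-library sites. On chromosome 19, positions 51113840 to 51125478, a control library carried 61 of 61. A block of chromosome 6 from 2727980 to 2805123 had 47 of 49 in a control library, and 1 of chromosome 7 from 144082820 to 144095403 had 45 of 46 in a squalene library. On chromosome 18, positions 45597096 to 45679929, a squalene library had 38 of 39. The ratio of transitions to transversions in these 5 blocks was 4.17, 2.39, 8.40, 3.50 and 5.33.

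The other 6 of the 15 runs were less exclusive, with 31.3 to 84.1% single-library sites. On chromosome 8, positions 32981190 to 33068502, a control library carried 42 single-library sites among 134 positions, 31.3%. On the scaffold NW_003159351.1 a control library had 44 of 85 positions, and on NW_003159393.1 a squalene library had 44 of 87.

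Sites were also counted in windows of 1000000 bases. Of 2677 windows with a position read in all libraries, 2085 held a single-library site and 316 held at least 20. In 174 of these 316, over 50% of the sites belonged to 1 library, and in 40 of them at least 90% did. A long run of 1 library by itself helps a window to reach 20 sites. These counts therefore describe the windows and do not test the grouping.

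Single-library sites were found on every chromosome, and each autosome and the X chromosome had sites of all 10 libraries. Their share of the positions ranged over autosomes from 9.43% on chromosome 21 to 20.9% on chromosome 15, with a median of 15.2%. The largest numbers were on chromosome 13 (1319 of 9557), chromosome 2 (1316 of 7091) and chromosome 1 (1307 of 8625). In single chromosomes 1 library could hold a large part, with 38.9% of the sites of chromosome 18 and 38.2% of those of chromosome 14 from 1 library each, squalene in both cases. Scaffolds not placed on a chromosome held 6874 sites, 30.8% of the single-library sites against 29.3% of the other positions.

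Male rabbits carry 1 X chromosome, so an allele there has no second copy beside it. Of 981 positions on the X chromosome, 141 (14.4%) were single-library sites. The control libraries had 7, 9, 11, 12 and 24 and the squalene libraries 7, 8, 15, 19 and 29, with overlap. Single-library sites were 2.72% ± 1.51 of a library's changes on the X chromosome and 2.90% ± 1.14 on the autosomes (SD, n = 10), lower on the X chromosome in 8 of 10 libraries, a difference of -0.18 percentage points that did not pass the test (p = 0.748, adjusted p = 0.748, exact permutation test). With 1 site per library and 100000 bases, a setting chosen after the data were seen, the difference was -3.30 percentage points and passed (adjusted p = 0.0439, exact permutation test) when both kinds of change were thinned. It turned to 0.839 (adjusted p = 0.0527, exact permutation test) when only the single-library sites were. Either thinning changes the counts behind the share, so neither value is on the scale of the 2.72% and 2.90% above.

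The mitochondrial genome, which is inherited from the mother without recombination, had 4 single-library sites among 21 positions. These were T3693C and T15330A in control libraries and C3871T and T15324A in squalene libraries, written as the reference base, the position counted from 1 and the base called. All 4 came from different libraries.

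On some scaffolds nearly all sites came from 1 library. On the scaffold NW_003159737.1, 46 of 47 positions were single-library sites, all of 1 control library. These 46 sites are also 1 of the 15 runs with the most sites counted above. On NW_003159745.1 there were 45 of 53, of which 42 were from squalene libraries and 88.9% from 1 library. Among 365 sequences with at least 20 positions, 7 had more than 50% single-library sites.

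The site table names a chromosome or scaffold for each position and no gene. Sites could be placed in a gene only through the 39 genes whose exons are given in the deposited table of splicing events, from the outermost event exons inward. Of these genes, 23 had at least 1 position read in all libraries and 11 had a single-library site. They held 33 such sites of 265 positions (12.5%), next to 15.4% over all positions. Of these, 19 came from control and 14 from squalene libraries, with 22 transitions and 11 transversions. Over all single-library sites 52.9% came from control libraries and 75.5% were transitions. No gene was tested against these shares. Of the 33, 16 lay in an exon of an event and the rest between such exons.

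ZSCAN25, a zinc finger gene with a SCAN domain, had 7 single-library sites of 37 positions from 5 libraries, 6 of them in event exons, among them C708222T in a squalene library and G708490A in a control library on the scaffold NW_003159386.1. KIF1B, a kinesin that carries cargo along microtubules, had 4 of 41 on chromosome 13, all in event exons and from 3 control libraries (C139957006A, G139957879A, C139957935A and A139959506C). WBSCR27, a gene of the methyltransferase family, had 5 of 40 from 4 libraries, of which 1 was a transition. LOC103351000 on chromosome 16 had 6 of 17, from 4 libraries of both diets.

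DCAF8, which encodes a substrate receptor of a ubiquitin ligase complex, had 2 of 4, the adjacent changes A32834089G and A32834090G of a control library on chromosome 13 and thus 1 of the 48 pairs from AA to GG. In LOC100343225, an alpha-amylase gene on chromosome 13, 3 of 11 positions were single-library sites from 3 libraries, all T to C. TIMM9, a chaperone of protein import into mitochondria, had 2 of 7. DPYS, an enzyme of pyrimidine breakdown that the liver uses, had 1 of 65, G119727690T between event exons of chromosome 3 in a control library. DCLK2, DUS4L and ZNF502 had 1 each.

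The classes next to the single-library sites in the list of positions divided over diets as follows. Positions that differed in 2 libraries were shared by 2 control libraries 3860 times, by 2 squalene libraries 2592 times and by 1 of each diet 10528 times, where 10, 10 and 25 pairs of libraries are possible. Positions at which only 1 library matched the reference averaged 1257 ± 316 in control and 1128 ± 479 in squalene libraries (SD, n = 5), and the difference did not pass the test (p = 0.635, exact permutation test).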

How the data were processed

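RNA from liver was sequenced on the DNBseq platform. Reads of low quality were discarded by the authors, who aligned the others to OryCun2.0 with HISAT2, called single nucleotide changes with GATK per sample and filtered unreliable sites. Versions and settings are not given in the sources used here. The deposited site table gives the reference base and the base called in each library, not read counts. Mark colours of accepted and rejected calls are not in its text form, so all listed calls were used. The deposited sheet of clean reads was used for its range only. Other files were used only for exon positions and gene symbols.

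Sites with reads in all 10 libraries and 1 differing library were selected. The first of 2 called bases was used. A library's other changes are those at sites where more libraries differ. Diets were compared by two-sided exact permutation tests (all divisions of 5 against 5), and kinds of site within libraries by all 1024 sign changes, with Benjamini-Hochberg adjustment. Correlations used 100000 permutations. Litters are not given, so p-values measure the spread between these 10 libraries. Scaffolds and chromosomes were named by number of sites (the top 15) and by share (the top 10 with at least 20 sites), since the planned rule, test and alternative by gene need gene names that the table does not hold. Genes were named where splicing events gave coordinates. Gene symbols were those of the deposited expression table, and no coordinates of RefSeq were used. The members and lists were chosen with earlier results of these data known. Tests were tried on simulated data. Python 3.11.15, numpy 2.4.6, pandas 2.3.3, scipy 1.17.1 and matplotlib 3.10.9 were used.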

Additional observations from a re-analysis of the deposited data

Results flagged for a closer look

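Of 46 groups of 5 libraries examined for a value far from the rest, 3 held one, near the rate of about 1 in 20 that chance alone gives. The groups are measures of the same libraries and are not independent. In 1 control library, 4.61% of the changes on autosomes were single-library sites, and the next control library had 2.92%. In 1 control library, A-C changes at single-library sites numbered 216, and the next had 138. In 1 squalene library the other changes, those shared with at least 1 library, numbered 64191, and the next had 71857. No explanation of these values was tested.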

How the results depend on the processing

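No paired analysis was possible because the column numbers of the site table match no sample label and so do not pair libraries of the 2 diets. The p-values given here are from exact permutation tests. Of 318 values recomputed under other settings, 309 kept their side of the threshold and none that had passed it changed direction. Only the A-T share and the close-site ratio had passed it as reported, so most of the 309 were results that again did not pass. Some results that had not passed did change direction. The diet difference in sites per library, for example, went from -712.1 to 39.95 when 1 library was left out. Without single-library sites within 10 bases of another, the difference in the share of changes to G or C became -3.64 percentage points (adjusted p = 0.0469, exact test). The other changes kept their close sites there. For positions with 2 differing libraries the difference in this share was -6.64. With 1 site per library and 100000 bases for both kinds of change (exact test), a setting chosen after seeing the data, it was -3.28, and the differences were -3.30 percentage points for the X chromosome against autosomes, -1.08 for C-T, -0.81 for C-G and -0.58 for A-C, all of which then passed the threshold. Thinning only the single-library sites gave 0.839 for the X chromosome (adjusted p = 0.0527, exact test). Either thinning changes the scale of the X chromosome and autosome shares. At positions with reads in at least 8 libraries (47883 single-library sites of 225817) C-G differed by -0.40 (adjusted p = 0.0117, exact test), and the difference in the transition to transversion ratio was -0.01. Leaving out 1 library at a time gave -0.22 to -0.13 for that ratio, and for A-T 1.21 to 1.36 percentage points (adjusted p = 0.0234, exact test). Over the other settings the A-T difference ranged from 0.263 to 1.60. The close-site ratio differed by -1.17 to -0.91 when 1 library was left out. The causes of these shifts were not tested. Depth per call is unknown, which limits the certainty of any single site.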
